A study of Homo sapiens with 18 samples.

Results

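The proteasome subunit genes were taken as all protein-coding genes whose symbol is PSM followed by a letter from A to G and a number. This rule found 46 of the 25296 genes in the deposited counts table, and all 46 passed the filter on low counts. PSMA8 and PSMB11 were not analysed here. The proteasome is the barrel-shaped protease that breaks down proteins tagged with ubiquitin. Its 20S core is built from rings of alpha subunits (PSMA genes) and beta subunits (PSMB genes). The 19S cap has a ring of ATPases (PSMC genes) that unfold substrates. It also has non-ATPase subunits (most PSMD genes), some of which bind ubiquitin chains or remove them. Other caps and an inhibitor (PSME genes and PSMF1) bind the ends of the core, and the PSMG genes encode assembly chaperones. Interferon is known to induce PSMB8, PSMB9 and PSMB10, which take the places of the catalytic subunits PSMB5, PSMB6 and PSMB7 in the immunoproteasome and change the peptides cut for antigen presentation.

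The cells were U2OS, an established human osteosarcoma line, in 3 derived lines: EV with the empty retroviral vector MigR1, WT overexpressing wild-type DNMT3A, and MUT overexpressing a mutant form. DNMT3A methylates DNA. The mutant is R882C in the description of the series but R882H in the labels of the samples, and the line is called MUT here. Each line was sampled untreated (a vehicle control in the series text) and after cytarabine at 10 µM for 24 h. Cytarabine is a nucleoside drug that stalls DNA synthesis. Each of the 6 groups had 3 biological replicates, all in U2OS, and whether a derived line is 1 clone or a pool is not given in the sources used here. Libraries held 15.4 to 21.9 M estimated counts. Levels below are counts per M (CPM) of the scaled library size. DNMT3A averaged 26.9 CPM in untreated EV, 133 in WT and 456 in MUT, and 47.4, 176 and 524 after cytarabine, in the order of the labels. The osteoblast and mesenchymal markers RUNX2, ALPL and COL1A1 were present in every library (at least 29.6, 6.27 and 60.8 CPM), while COL1A2 was as low as 0.292 CPM, SPP1 reached 1.35 CPM and SP7 was not analysed here. Of the measured leukocyte, epithelial and endothelial markers, CDH5 reached the highest level, 6.37 CPM, and PTPRC reached 1.41 CPM. The untreated MUT replicates were the least alike of the 6 groups, with a biological coefficient of variation of 0.219 against 0.040 in untreated EV. In these untreated MUT libraries DNMT3A was at 500, 615 and 254 CPM. The third of them, with the lowest DNMT3A of the group, also had the highest level of 38 of the 46 proteasome genes within the group and of 34 among all 18 libraries. Its part in the results was not tested. Values without it stand beside some of the MUT results, and the other MUT values include it.

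The stretches before the gene starts of PSMB8, PSMB9 and PSMB10 are shown because these 3 genes, which interferon is known to induce together, responded differently to cytarabine. Each is read 5′ to 3′ on the strand of the gene and ends at the base before the start that RefSeq gives on GRCh38.p14. For PSMB9 and PSMB10 it is 250 bases long (chr6:32853942-32854191, plus strand, and chr16:67936851-67937100, minus strand). For PSMB8 the 156 bases nearest the start are shown (chr6:32844680-32844835, minus strand). Capitals mark matches to the motifs described after the sequences.
PSMB8: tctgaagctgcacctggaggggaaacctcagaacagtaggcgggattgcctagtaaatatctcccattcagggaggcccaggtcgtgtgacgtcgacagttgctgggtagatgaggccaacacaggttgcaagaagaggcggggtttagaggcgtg
PSMB9: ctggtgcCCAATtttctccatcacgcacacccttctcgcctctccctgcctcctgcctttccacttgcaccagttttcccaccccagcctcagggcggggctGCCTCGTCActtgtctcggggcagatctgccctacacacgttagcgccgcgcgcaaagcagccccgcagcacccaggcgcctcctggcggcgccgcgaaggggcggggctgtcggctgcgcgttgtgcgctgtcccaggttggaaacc
PSMB10: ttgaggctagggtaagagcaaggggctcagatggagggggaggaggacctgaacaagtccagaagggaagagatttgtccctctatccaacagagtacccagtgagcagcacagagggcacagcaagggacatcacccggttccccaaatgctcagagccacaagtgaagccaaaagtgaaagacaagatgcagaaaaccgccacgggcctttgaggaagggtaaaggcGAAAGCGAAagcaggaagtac

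Windows of the 250 bases before the start were at hand for 40 of the 46 genes, and 5 motifs were searched in them on both strands. The core of interferon response elements, GAAANNGAA, was held by 5 of the 40 (12.5%) and by 6.87% of all 34943 windows of this length. The 5 were PSMB10, PSME2, PSMG4, PSMA4 and PSMB4. PSMB10, PSME2 and PSMG4 carried the same letters, GAAAGCGAA, starting 21, 28 and 33 bases before the gene start. The letters were not in the windows of PSMB8 and PSMB9. The motif TTCNNNGAA was held by 4 of 40 (10%, against 6.56%). The core of antioxidant response elements, TGACNNNGC, was held by 11 (27.5%, against 10.9%), including PSMB9, PSME1 and PSME2. The ETS motif CCGGAAG was held by 9 (22.5%, against 8.48%), and the CCAAT box by 17 (42.5%, against 32%). GAAANNGAA and TTCNNNGAA end in the same 3 letters, so matches to both can overlap. A match describes letters in a window and is not evidence of a bound site.

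Cytarabine lowered most proteasome mRNAs in every line. Of the 46 genes, 40 were lower and 2 higher in EV, 37 lower and 3 higher in WT, and 42 lower and 1 higher in MUT (edgeR quasi-likelihood test, adjusted p under 0.05). Among all 18226 tested genes the share that fell was 22.9% in EV, 22.7% in WT and 25.9% in MUT, and the share that rose was 26.1%, 26.3% and 30.4%. There were 37 members that fell in all 3 lines. The median log2 fold change of the members was -0.48 in EV, -0.46 in WT and -0.78 in MUT, where the median of all tested genes was 0.05, 0.03 and 0.05. Among the 9051 genes at a mean log2 CPM of at least 4, the medians were -0.13, -0.10 and -0.11. The replicates of the compared groups did not overlap for 42 members in EV, 43 in WT and 41 in MUT, where they did not overlap for 58.7%, 65.3% and 56.6% of all tested genes. The calls rested on RNA from the whole culture, in which fewer cells of a kind and less RNA per cell cannot be told apart.

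**Figure D1:**
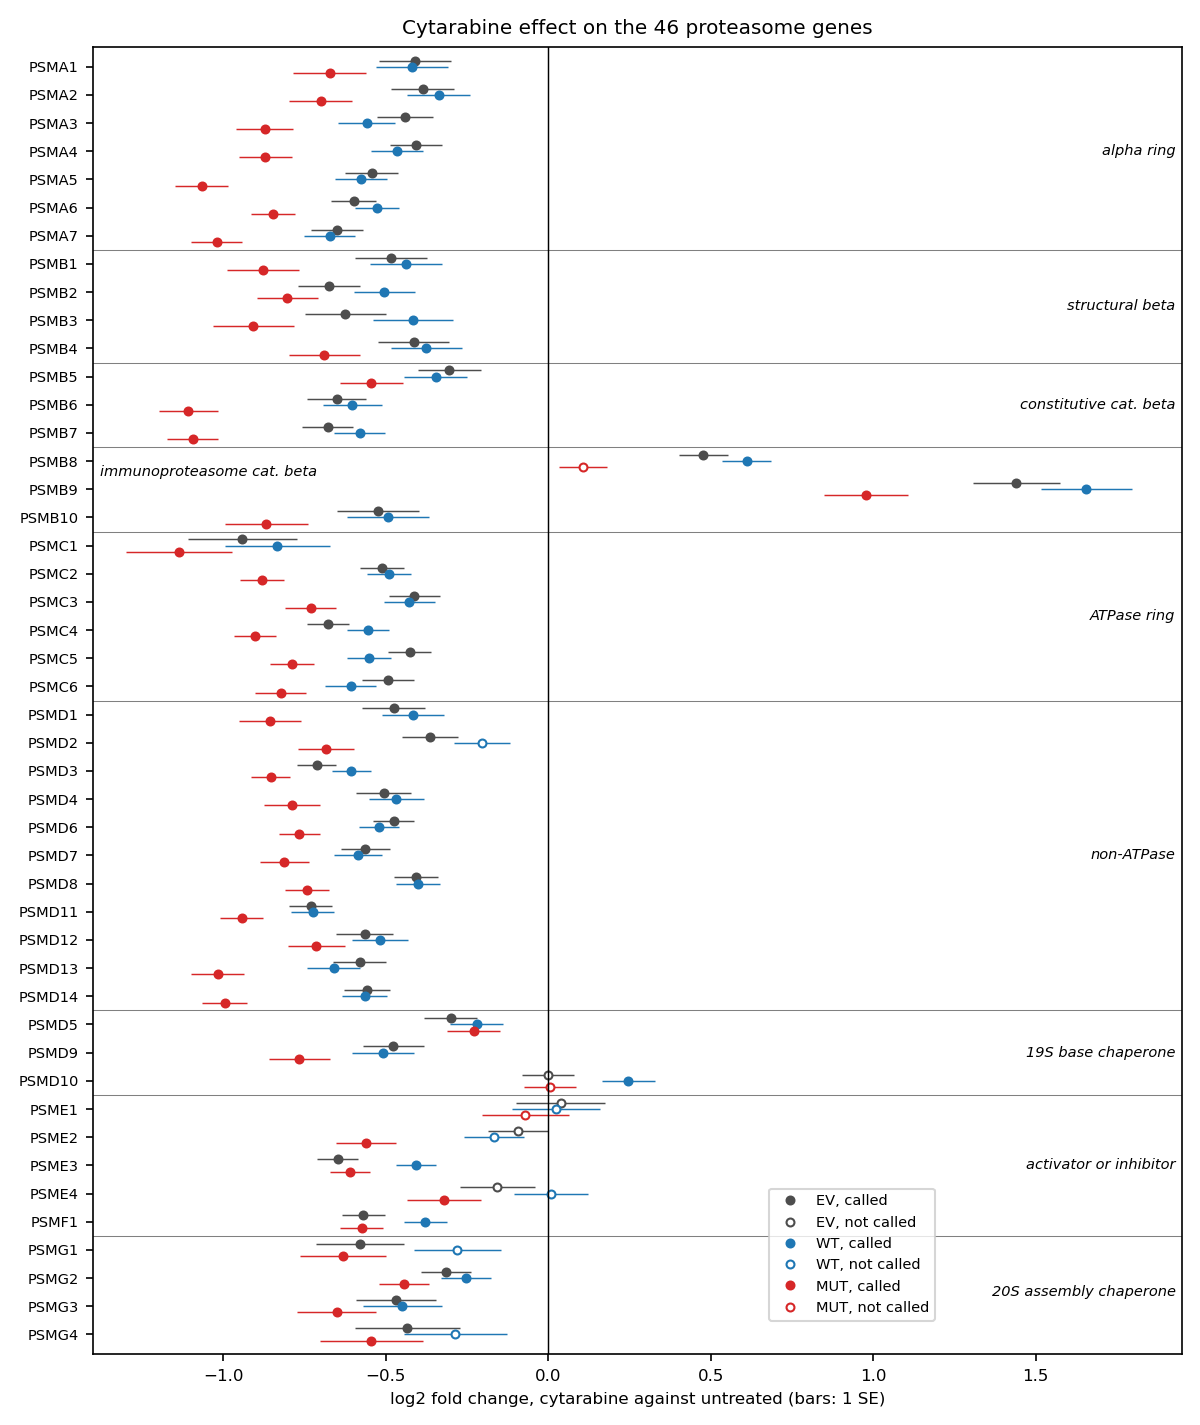
Log2 fold change (cytarabine against untreated, horizontal axis) of each of the 46 genes by class, for EV (grey), WT (blue) and MUT (red). Bars are 1 SE from the edgeR fit, filled points passed an adjusted p of 0.05, and only PSMB9 in all lines, PSMB8 in EV and WT and PSMD10 in WT rose.

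The constitutive subunits of the core and the cap moved as a block. These are 31 genes: 7 alpha subunits, 4 beta subunits without an active site, the catalytic PSMB5, PSMB6 and PSMB7, 6 ATPases and 11 non-ATPase subunits. All 31 fell in EV and in MUT and 30 fell in WT, where PSMD2, a scaffold of the 19S base, had a log2 fold change of -0.20 (adjusted p = 0.0575, edgeR). Their log2 fold changes were close together, with a median of -0.51 and an SD across genes of 0.14 in EV, -0.52 and 0.13 in WT, and -0.85 and 0.14 in MUT. Their summed level was 7129, 7100 and 6804 CPM in the untreated EV libraries and 4953, 4875 and 4878 CPM after cytarabine. In WT it was 7464, 7444 and 7431 CPM untreated and 5220, 5425 and 5421 CPM treated. In MUT it was 7921, 8282 and 9522 CPM untreated and 4743, 4833 and 4870 CPM treated. The mean sum of treated cells was thus 69.9% of the untreated in EV, 71.9% in WT and 56.2% in MUT. Untreated MUT replicate 3 was the highest of its group for 27 of the 31 genes, and leaving it out gave a MUT share of 59.4% and a median log2 fold change of -0.77, with all 31 genes called lower. The untreated sums of the lines stood apart, with MUT highest, while each treated MUT library lay below the treated EV libraries. The treated gap was small, at 4870 against 4875 CPM for the closest libraries, and the classes were split. Mean treated sums were lower in MUT than in EV for alpha (1144 against 1183 CPM) and non-ATPase subunits (1954 against 2077 CPM). They were higher in MUT for beta subunits without an active site (653 against 634 CPM), catalytic subunits (285 against 281 CPM) and ATPases (779 against 728 CPM).

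**Figure D2:**
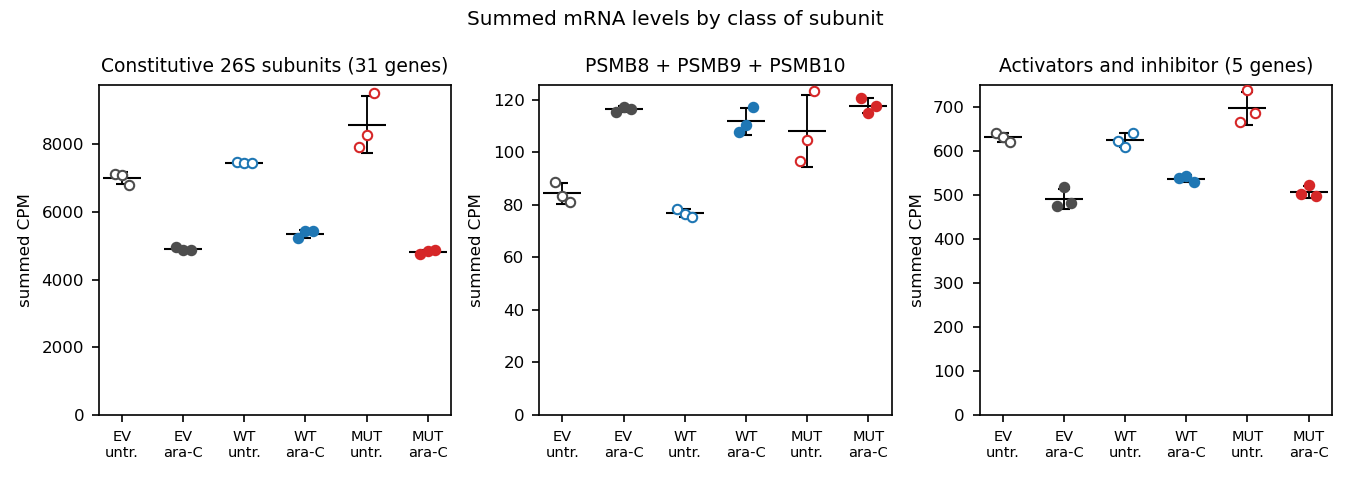
Summed CPM per library for the 31 constitutive subunits, for PSMB8, PSMB9 and PSMB10 together, and for PSME1 to PSME4 with PSMF1. Open points are untreated and filled points treated libraries (ara-C, cytarabine), horizontal lines are group means and error bars the SD (n = 3), and the constitutive sum falls in each line while the immunoproteasome sum is higher in treated EV and WT.

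Among the alpha subunits, which form the outer rings and the gate of the core, all 7 fell in each line, with medians of -0.44 (EV), -0.53 (WT) and -0.87 (MUT). PSMA7 had the highest level per kb of transcript of all members, at 570.5 CPM per kb in untreated EV. Its libraries read 561, 561 and 525 CPM in untreated EV and 379, 336 and 334 CPM treated. In WT it read 553, 582 and 567 CPM and then 345, 351 and 371 CPM, and in MUT 663, 686 and 843 CPM and then 364, 354 and 362 CPM. Treated PSMA7 thus came to a like range in the 3 lines from untreated levels that were highest in MUT. The log2 fold changes were -0.65 ± 0.08 (SE), -0.67 ± 0.08 and -1.02 ± 0.08 in EV, WT and MUT. PSMA5 fell by 0.54, 0.58 and 1.07 on the log2 scale. The MUT values without untreated replicate 3 were -0.94 for PSMA7 and -1.05 for PSMA5. The beta subunits without an active site (PSMB1 to PSMB4) all fell in each line, with medians of -0.55, -0.43 and -0.84.

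In the 19S cap, each of the 6 ATPases fell in each line, with medians of -0.50 (EV), -0.55 (WT) and -0.85 (MUT). PSMC1 had the largest fall of all members in each line (-0.94 ± 0.17 SE, -0.83 ± 0.16 and -1.14 ± 0.16), from 16.1, 14.2 and 13.4 CPM to 7.48, 7.93 and 7.40 CPM in EV. Its value is uncertain, because it has the lowest level per kb of all members (3.32 CPM per kb in untreated EV) and its processed pseudogene PSMC1P1 held 77.2% to 86.2% of the counts of both. PSMC1P1 fell by 0.68, 0.84 and 1.13, and with both joined PSMC1 fell by 0.72, 0.84 and 1.13 on the log2 scale. Of the non-ATPase subunits, all 11 fell in EV and MUT. PSMD11, a lid subunit, fell by 0.73, 0.73 and 0.94, from 303, 313 and 284 CPM to 181, 183 and 177 CPM in EV. PSMD3, another lid subunit, fell by 0.71, 0.61 and 0.85. PSMD14, the deubiquitinase of the lid that cuts ubiquitin chains from substrates, fell by 0.56, 0.57 and 1.00, the last being -0.94 without untreated MUT replicate 3.

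The catalytic subunits divided. PSMB6 (caspase-like site), PSMB7 (trypsin-like site) and PSMB5 (chymotrypsin-like site) fell in each line, as did PSMB10, while PSMB9 rose in each line and PSMB8 in EV and WT. PSMB6 read 107, 110 and 106 CPM in untreated EV and 72.4, 65.2 and 68.0 CPM treated. In WT it read 113, 119 and 109 CPM and then 72.9, 72.0 and 79.6 CPM, and in MUT 123, 132 and 168 CPM and then 67.4, 61.9 and 66.6 CPM. The groups did not overlap in any line, and its log2 fold changes were -0.65 ± 0.09 (SE), -0.60 ± 0.09 and -1.11 ± 0.09. PSMB7 read 134, 130 and 131 CPM and then 89.8, 78.8 and 78.2 CPM in EV. It read 147, 142 and 140 CPM and then 91.5, 98.2 and 97.8 CPM in WT, and 148, 175 and 190 CPM and then 80.2, 81.8 and 78.4 CPM in MUT. The untreated MUT values were the highest and the treated MUT values were in the range of EV, and the log2 fold changes were -0.68, -0.58 and -1.09. PSMB5 read 175, 156 and 151 CPM in untreated EV and 132, 123 and 135 CPM treated. In WT it read 187, 189 and 182 CPM and then 142, 143 and 155 CPM, and in MUT 194, 170 and 246 CPM and then 137, 142 and 140 CPM. Its log2 fold changes were -0.30 ± 0.10 (SE, adjusted p = 0.0137, edgeR), -0.35 ± 0.10 and -0.55 ± 0.10. The MUT values without untreated replicate 3 were -0.99 for PSMB6, -1.04 for PSMB7 and -0.42 for PSMB5. The EV call of PSMB5 was lost without untreated EV replicate 1 (-0.24, adjusted p = 0.0823) and without treated EV replicate 2 (-0.27, adjusted p = 0.0547).

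The immunoproteasome genes did not move together. PSMB9 (chr6:32844136-32859586, plus strand), which replaces PSMB6, rose in each line. It read 13.1, 10.6 and 11.6 CPM in untreated EV and 31.88, 32.03 and 32.16 CPM treated. In WT it read 7.31, 6.61 and 6.71 CPM and then 23.2, 19.2 and 22.5 CPM. In MUT it read 15.6, 13.0 and 19.9 CPM and then 34.5, 27.0 and 34.3 CPM. The groups did not overlap in any line, and WT was lowest both untreated and treated. The log2 fold changes were 1.44 ± 0.13 (SE) in EV, 1.66 ± 0.14 in WT and 0.98 ± 0.13 in MUT, with edgeR adjusted p of 5.24e-08, 1.69e-08 and 2.82e-06. Without untreated MUT replicate 3 the MUT value was 1.12 (adjusted p = 2.66e-07).

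PSMB8 (chr6:32840717-32844704, minus strand), which replaces PSMB5, rose in EV and WT. It read 51.3, 48.3 and 46.5 CPM in untreated EV and 67.8, 68.6 and 67.0 CPM treated. In WT it read 50.1, 47.1 and 51.1 CPM and then 69.8, 76.0 and 80.7 CPM. In MUT it read 59.5, 69.3 and 72.6 CPM and then 73.6, 72.7 and 70.3 CPM, so that the MUT groups overlapped and the untreated MUT libraries already stood above the other untreated libraries. The log2 fold changes were 0.48 ± 0.08 (SE), 0.61 ± 0.07 and 0.11 ± 0.07, the last with an adjusted p of 0.232 (edgeR). Without untreated MUT replicate 3 the MUT value was 0.14 (adjusted p = 0.123). PSMB8 and PSMB9 overlap on opposite strands in the annotation, and PSMB9 also overlaps TAP1 and PSMB8-AS1. Since the strand handling of the counting is not given in the sources used here, reads from the overlaps cannot be told apart.

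PSMB10 (chr16:67934502-67937088, minus strand), which replaces PSMB7, fell in each line. It read 24.4, 24.4 and 22.9 CPM in untreated EV and 15.7, 16.7 and 17.4 CPM treated. In WT it read 21.0, 22.8 and 17.7 CPM and then 14.5, 15.1 and 14.1 CPM, and in MUT 21.3, 22.3 and 30.8 CPM and then 12.3, 15.4 and 13.2 CPM. The groups did not overlap in any line. The log2 fold changes of -0.52 ± 0.13 (SE), -0.49 ± 0.13 and -0.87 ± 0.13 were in the range of the constitutive subunits, and the MUT value was -0.71 without untreated MUT replicate 3. PSMB10 is the immunoproteasome gene whose window holds GAAAGCGAA.

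**Figure D3:**
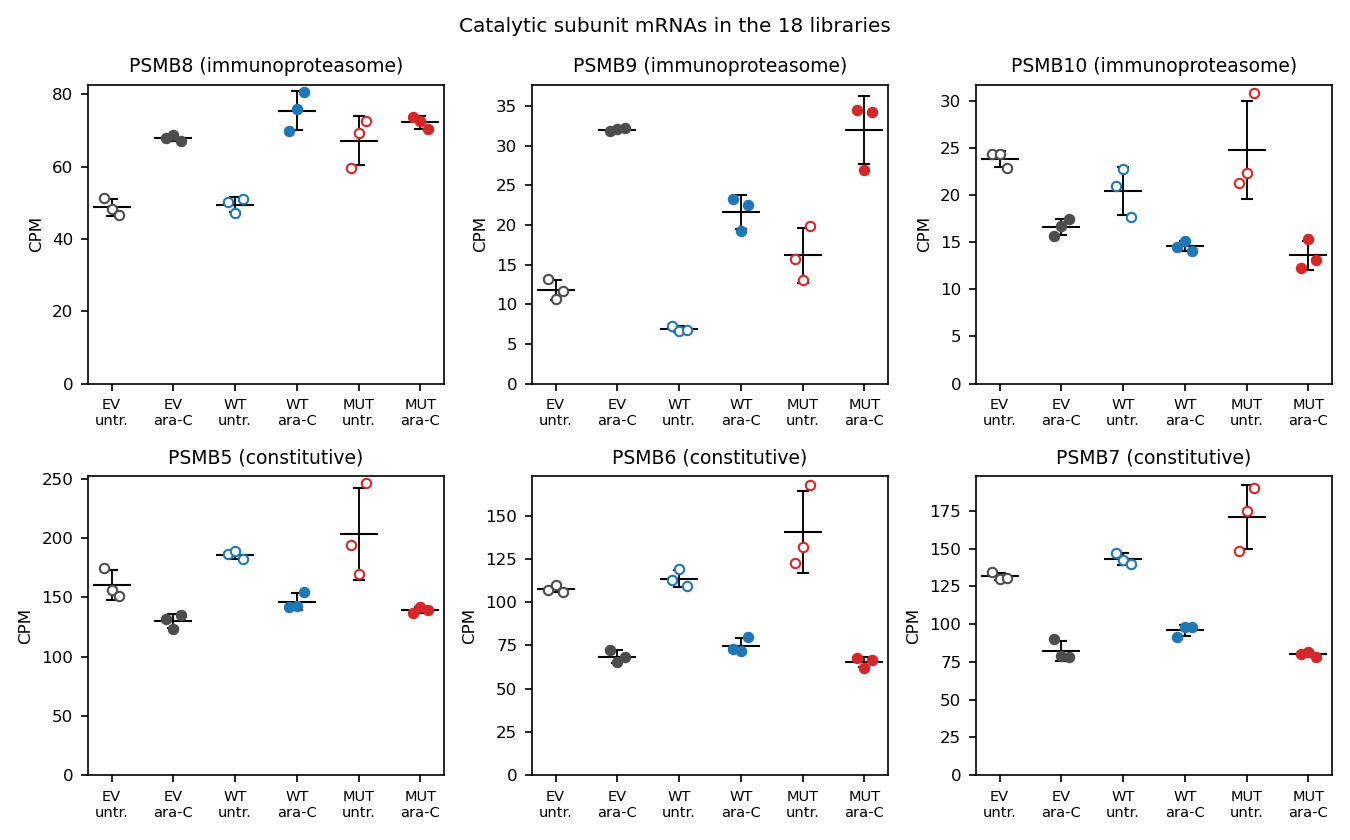
CPM per library of the immunoproteasome genes (upper row) above the constitutive subunits they replace (lower row) in the 6 groups. Open points are untreated and filled points treated libraries (ara-C, cytarabine), with group means and SD (n = 3), and PSMB9 is higher in treated libraries of each line, PSMB10 and the constitutive subunits are lower, and PSMB8 overlaps between the MUT groups.

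Per transcript length, the mean share of the immunoproteasome member in its pair with the constitutive subunit was higher after cytarabine in all 3 pairs and lines, with no overlap of treated and untreated libraries in 2 of the pairs. This is a description with no test. PSMB8 made up 21.4%, 22.3% and 22.2% of PSMB8 and PSMB5 in untreated EV and 32.3%, 34.1% and 31.5% after cytarabine. In WT the shares were 19.9%, 18.8% and 20.7% and then 31.4%, 33.1% and 32.6%, and in MUT 22.1%, 27.5% and 21.5% and then 33.3%, 32.3% and 31.9%. The treated shares of the 3 lines overlapped, and none of them overlapped with the untreated shares. PSMB9 made up 8.16% ± 0.886 (SD, n = 3) of PSMB9 and PSMB6 in untreated EV, 4.68% ± 0.352 in WT and 8.51% ± 1.01 in MUT. After cytarabine its share was 27.5% ± 1.11, 18.99% ± 1.39 and 28.3% ± 1.90. PSMB10 made up 15.4% ± 0.432, 12.6% ± 1.29 and 12.7% ± 1.32 of PSMB10 and PSMB7 untreated and 17.0% ± 1.78, 13.3% ± 0.575 and 14.6% ± 1.27 treated, so that its means were also higher treated but the libraries overlapped in each line. Since PSMB5 and PSMB6 fell, the shares hold both that fall and the change of PSMB8 and PSMB9. In MUT, PSMB8 did not pass the test while PSMB5 fell.

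**Figure D4:**
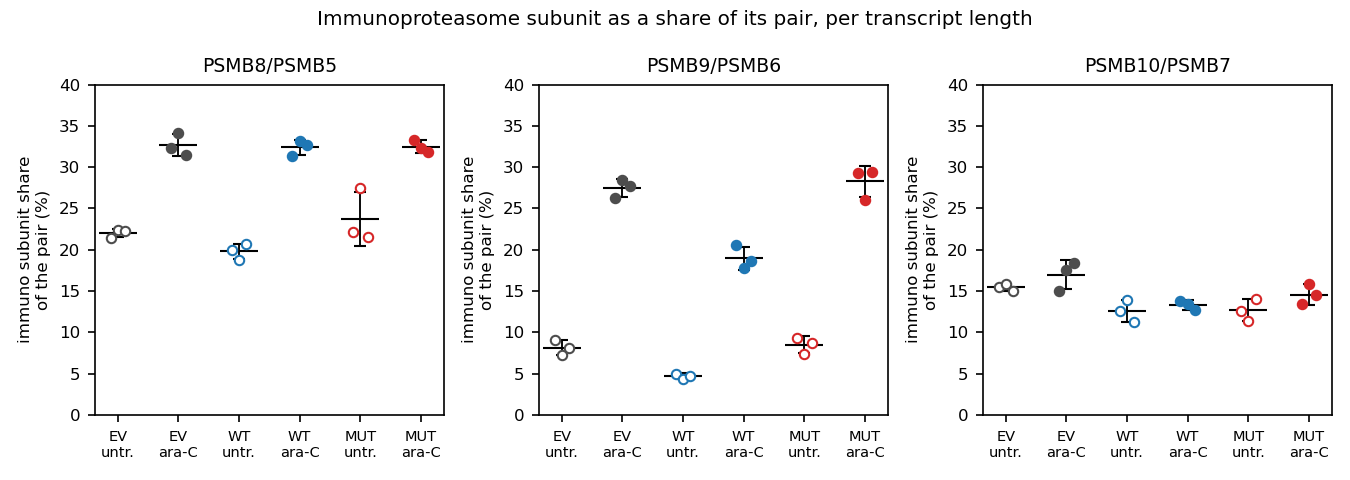
Share (%) of PSMB8, PSMB9 and PSMB10 in the pair with PSMB5, PSMB6 and PSMB7, from CPM per kb of transcript, in each of the 18 libraries. Horizontal lines are means with SD (n = 3), open points untreated and filled points treated (ara-C, cytarabine), and the first 2 pairs shift upward in each line while WT stays lowest for PSMB9.

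The caps and the inhibitor split by gene. PSME1 and PSME2 encode the alpha and beta subunits of PA28, the cap that interferon induces along with the immunoproteasome. PSME1 passed the test in no line (0.04 ± 0.14 SE, 0.02 ± 0.14 and -0.07 ± 0.13). It read 44.5, 47.7 and 43.7 CPM and then 48.6, 41.5 and 49.3 CPM in EV, and 48.5, 48.1 and 46.1 CPM and then 51.1, 43.3 and 50.7 CPM in WT. In MUT it read 60.7, 43.5 and 79.0 CPM and then 59.7, 56.0 and 59.0 CPM, with untreated libraries spread on both sides of the treated ones. Without untreated MUT replicate 2, the lowest of them, PSME1 fell in MUT by 0.30 (adjusted p = 0.0161, edgeR).

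PSME2 read 81.1, 74.0 and 67.7 CPM and then 79.9, 62.1 and 66.7 CPM in EV, and 71.8, 73.5 and 76.6 CPM and then 61.7, 63.3 and 72.5 CPM in WT. In MUT it read 104, 103 and 116 CPM and then 75.8, 75.5 and 67.7 CPM. It fell in MUT (-0.56 ± 0.09 SE, adjusted p = 3.76e-05) and had log2 fold changes of -0.09 in EV and -0.17 in WT that did not pass the test, although the WT value passed in a fit of the WT libraries alone (adjusted p = 0.0161). Its pseudogene PSME2P2 held 7.84% to 10.9% of the counts of both, and joining them left the MUT value at -0.57.

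PSME3, the nuclear PA28 gamma cap, fell in each line by 0.65, 0.41 and 0.61. It read 243, 251 and 244 CPM and then 149, 162 and 160 CPM in EV, 241, 236 and 253 CPM and then 181, 194 and 175 CPM in WT, and 238, 248 and 230 CPM and then 147, 161 and 161 CPM in MUT. Its untreated levels overlapped among the lines, and treated WT stood above treated EV and MUT. PSME4, the PA200 cap of the nucleus, read 178, 173 and 177 CPM and then 138, 190 and 145 CPM in EV and 173, 162 and 173 CPM and then 177, 172 and 163 CPM in WT. In MUT it read 180, 247 and 178 CPM and then 164, 169 and 151 CPM and fell by 0.32 (adjusted p = 0.0223). This call was lost without untreated MUT replicate 2 (-0.19, adjusted p = 0.0960), without treated MUT replicate 3 (-0.28, adjusted p = 0.0876) and in a fit of the MUT libraries alone (-0.33, adjusted p = 0.0795). In EV PSME4 had -0.16 (adjusted p = 0.276), and it fell without treated EV replicate 2 (-0.31, adjusted p = 0.0232). PSMF1, which encodes the inhibitor PI31, fell by 0.57, 0.38 and 0.57. It read 96.3, 87.3 and 89.2 CPM and then 60.0, 62.7 and 61.1 CPM in EV, 88.8, 90.3 and 92.7 CPM and then 67.4, 72.1 and 69.5 CPM in WT, and 84.1, 96.5 and 83.2 CPM and then 57.0, 61.2 and 58.9 CPM in MUT.

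Most of the assembly chaperones fell as well. The 4 chaperones of the core (PSMG1 to PSMG4) all fell in EV and MUT, with medians of -0.45 and -0.59, and 2 of them fell in WT (median -0.28). Of the 3 chaperones of the 19S base, PSMD5 and PSMD9 fell in each line. PSMD10, known as gankyrin, had log2 fold changes of 0.00 in EV and MUT and rose in WT by 0.25 ± 0.08 (SE, adjusted p = 0.0159), from 40.02, 36.19 and 37.45 CPM to 45.1, 44.7 and 45.1 CPM. That call was lost with the authors' scaling factors (0.19, adjusted p = 0.0812) and without untreated WT replicate 2 (0.21, adjusted p = 0.0797).

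Other genes of the pathway were read from a list of 27 tested partners of the proteasome. None rose in any line, and 19 fell in EV, 19 in WT and 22 in MUT, with medians of -0.32, -0.32 and -0.39. Among all tested genes 22.9%, 22.7% and 25.9% fell, and 26.1%, 26.3% and 30.4% rose. ADRM1, a ubiquitin receptor of the 19S cap, fell by 0.86, 0.77 and 1.21, and POMP, which matures the core, by 0.53, 0.47 and 0.82. VCP, the segregase that delivers ubiquitinated proteins, fell by 0.66, 0.70 and 0.98. NFE2L1, the transcription factor that is known to drive proteasome genes when the proteasome is impaired, fell by 0.31, 0.32 and 0.38. On a list of 15 antigen processing genes and their inducers, 4 were higher in each line, and 3 were lower in EV, 0 in WT and 3 in MUT. The share that rose, 26.7%, was near the 26.1%, 26.3% and 30.4% of all tested genes. The falls on this list stand beside the 22.9%, 22.7% and 25.9% of all tested genes that fell. The same 4 rose in each line: TAP1, the peptide transporter gene beside PSMB9 (0.74, 1.21 and 0.63), STAT2 of the interferon pathway (0.97, 0.84 and 0.97), NLRC5, the activator of MHC class I genes (0.46, 0.47 and 0.51), and the peptidase ERAP1 (0.28, 0.33 and 0.59). IRF1, an interferon-induced factor known to bind the PSMB9 promoter, fell in EV and MUT by 0.31 and 0.23 and had 0.11 in WT (adjusted p = 0.362). B2M, the light chain of MHC class I (0.03, 0.06 and 0.02), did not pass the test in any line.

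The log2 fold change on cytarabine was lower in MUT than in EV for 43 of the 46 members, by the sign of the difference. It was lower than in WT for all 46. For a gene that fell, a lower value is a larger fall. All these differences use the same MUT libraries, so the signs are not separate observations. The share of all tested genes with these signs is not given here. The median difference in log2 fold change was -0.29 against EV and -0.32 against WT, and 0.04 for WT against EV. Single genes seldom passed the test of the difference. In edgeR 0 members passed for WT against EV, where 0.285% of all genes did. At an unadjusted p under 0.05 there were 2 members, against 9.96% of all genes, and in DESeq2 0 passed, against 1.01%. For MUT against EV 0 passed, where 0.214% of all genes did. At an unadjusted p under 0.05 there were 27 members, against 15.8% of all genes, and in DESeq2 16 passed, against 5.76%. For MUT against WT 4 were lower and 0 higher, where 0.494% of all genes were lower and 0.510% higher. The 4 were PSMB7 (-0.51 ± 0.11 SE, adjusted p = 0.0289), PSMB8 (-0.50 ± 0.10, adjusted p = 0.0272), PSMA5 (-0.49 ± 0.11, adjusted p = 0.0419) and PSMD14 (-0.43 ± 0.10, adjusted p = 0.0374). PSMB9 differed by -0.68 ± 0.19 against WT (adjusted p = 0.0902 in edgeR and 0.0147 in DESeq2).

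These counts moved with single libraries. For MUT against WT, 16 members were lower without untreated MUT replicate 1, 19 without replicate 2 and 9 without replicate 3. In these fits the share of all genes called in either direction was also higher, at 4.34%, 3.61% and 1.80%. There were 0 without any 1 of the untreated WT libraries, without treated WT replicates 2 or 3, or without any 1 of the treated MUT libraries. There were 2 without any 1 of the untreated EV libraries, without treated EV replicate 3 or without treated WT replicate 1. None of the 4 calls held in all of these fits. For MUT against EV, 13 members were lower without untreated MUT replicate 1, 12 without replicate 2 and 2 without replicate 3, where 3.57%, 1.80% and 0.541% of all genes were called, and 1 was lower without treated EV replicate 2. Without untreated MUT replicate 3, the median difference was -0.21 against EV and -0.25 against WT. PSMA5 (-0.51, adjusted p = 0.0387) and PSMD14 (-0.38, adjusted p = 0.0341) then differed from EV.

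The counts of members that differed between MUT and the other lines depended on treatment and on the fit. In untreated cells 25 members were higher in MUT than in EV and 1 was lower, where 9.88% of all genes were higher and 10.0% lower. Against untreated WT, 17 were higher in MUT and 0 lower (background 11.7% and 9.54%). The median log2 differences were 0.28 and 0.23. After cytarabine 0 members were higher in MUT than in EV and 3 lower (background 6.85% and 7.13%), with a median of 0.01. Against treated WT, 1 was higher and 10 lower (background 10.4% and 9.48%), with a median of -0.09. These comparisons share the MUT libraries. The largest untreated differences of MUT from EV were in PSMD14 (0.56 ± 0.07 SE), PSME2 (0.54 ± 0.09) and the ATPase gene PSMC3 (0.50 ± 0.08). These SE rest on a spread shared by all groups and can be too small for untreated MUT, the most variable group. PSMD14 read 161, 167 and 164 CPM in untreated EV, 185, 186 and 188 CPM in WT and 214, 241 and 270 CPM in MUT, with no overlap of the 3 lines. PSMB8 was higher in untreated MUT than in EV by 0.46 ± 0.08 (adjusted p = 0.000309) and than in WT by 0.44 ± 0.08. PSMB9 was higher by 0.46 ± 0.14 than in EV (adjusted p = 0.0239), with overlapping replicates, and by 1.23 ± 0.14 than in WT. Without untreated MUT replicate 3, PSMB9 against EV was at 0.31 (adjusted p = 0.102), PSME1 at 0.23 (adjusted p = 0.141, against 0.43 with it), and PSMD14, PSME2 and PSMC3 were at 0.50, 0.50 and 0.44.

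**Figure D5:**
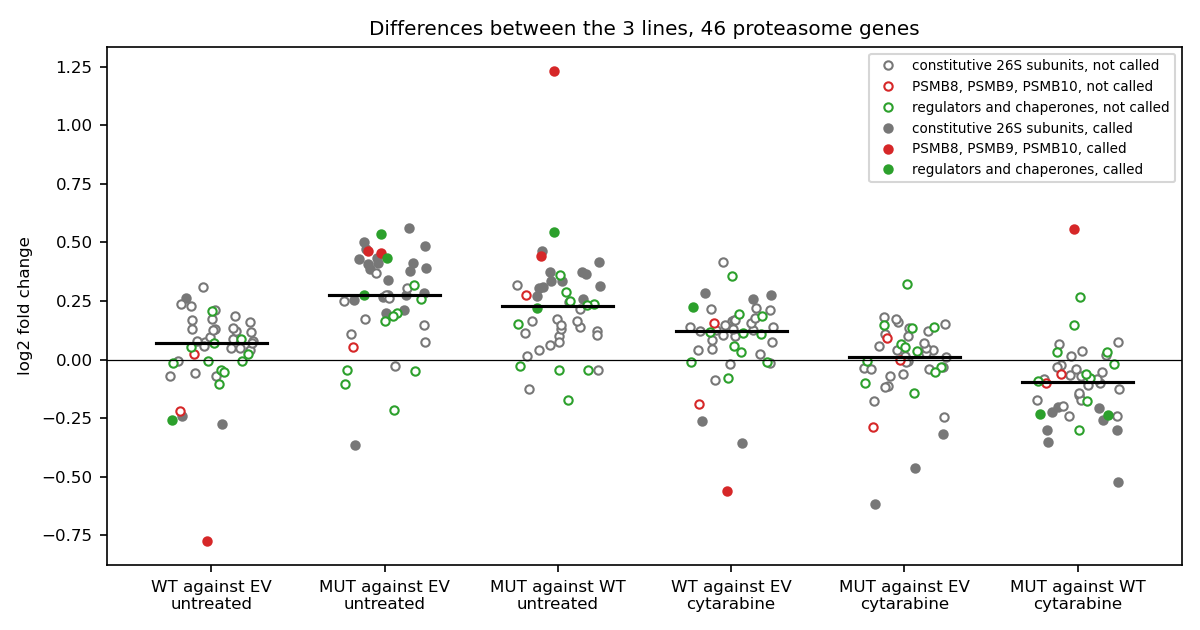
Log2 fold change between lines (vertical axis) of the 46 genes in untreated cells (left 3 columns) and treated cells (right 3 columns). Filled points passed an adjusted p of 0.05, black lines are medians, and the untreated MUT comparisons have medians of 0.28 and 0.23 against 0.01 and -0.09 in treated cells.

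Without untreated MUT replicate 3, 19 members were higher and 1 lower against untreated EV (median 0.18), and 16 higher and 1 lower against untreated WT (median 0.12). The count against EV was 15 higher and 1 lower without untreated EV replicate 3. The count against WT was 32 higher without untreated MUT replicate 2, 11 without untreated WT replicate 1 and 10 without untreated WT replicate 3. In a fit of the 2 compared groups alone, 9 were higher in untreated MUT than in EV and 5 than in WT, where 5.83% and 7.16% of all genes were called. After cytarabine such fits called 5 members between MUT and EV (1 higher, 4 lower) and 20 between MUT and WT (2 higher, 18 lower), where 15.0% and 35.5% of all genes were called. The order of the untreated and treated counts against WT was thus turned. In these fits the share of all genes called was also lower untreated (7.16%) than treated (35.5%). The turn is therefore not read as a result about the members. In treated cells the count for MUT against EV was 5 without untreated MUT replicates 1 or 2 and 7 without replicate 3. That for MUT against WT was 5 without treated WT replicate 2 or treated MUT replicate 1, 7 without treated WT replicate 3 and 6 without treated MUT replicate 2. The share of all genes called is not given for these fits without 1 library. Their counts are thus not read as a result about the members.

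Between WT and EV, PSMB9 had the log2 fold change farthest from 0, untreated and treated. Untreated, 1 member was higher in WT and 4 lower (background 4.30% and 7.36%), and treated, 4 were higher and 3 lower (7.41% and 9.12%). PSMB9 was lower in WT, with a log2 fold change against EV of -0.78 ± 0.15 (SE, adjusted p = 0.00131, edgeR) untreated and -0.56 ± 0.13 (adjusted p = 0.0044) treated, with no overlap of replicates, and was called in each fit that left out 1 library. Of the 5 untreated calls between WT and EV only 1, PSMB9, held in every such fit, and of the 7 treated calls 3 did. PSMC2, an ATPase, was higher in WT by 0.26 untreated and 0.28 treated. Treated PSMD2 and PSME3 were higher in WT by 0.28 and 0.23. In a fit of the untreated WT and EV libraries alone, 17 members were higher in WT and 4 lower, where 31.5% of all genes were called. The untreated count of 5 was 1 without untreated EV replicate 1 or untreated WT replicate 2, and 2 without any other 1 of the untreated EV or WT libraries. It was 3 without treated EV replicate 3, any 1 of the treated WT libraries or treated MUT replicates 1 or 2, and 9 without untreated MUT replicate 3. The treated count of 7 was 3 without treated WT replicate 2 and 15 without untreated MUT replicate 3. For these fits without 1 library, too, the share of all genes called is not given.

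A few members stood against the rest of the core. PSMD7 (chr16:74296775-74306289), a scaffold of the lid, was lower in MUT than in EV, at -0.37 ± 0.07 (SE, log2) untreated and -0.62 ± 0.07 treated. It read 161, 169 and 157 CPM in untreated EV, 137, 136 and 139 CPM in WT and 113, 121 and 145 CPM in MUT. It was also lower in WT than in EV, at -0.24 and -0.26. Among the 65 tested genes within 5 Mb, the median difference of untreated MUT from EV was -0.52, with 43 lower and 0 higher. PSMB10 lies on the same chromosome, and of its 114 neighbours within 5 Mb 57 were lower and 1 higher in that comparison (median -0.43), while PSMB10 itself was at 0.05 (adjusted p = 0.807). PSMD13 (chr11:236546-252985), a lid subunit, was lower in WT than in EV, at -0.27 untreated and -0.35 treated, and lower in treated MUT than in treated EV, at -0.47. Of its 61 neighbours 15 were lower and 1 higher in untreated WT against EV, with a median of -0.21. The part of the region in these differences was not tested.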

How the data were processed

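Total RNA of 18 U2OS libraries was sequenced. The authors deposited expected counts per gene, not normalized and not all whole numbers, and a second table of normalized signal, which equals 1 plus a factor per library times the count. CASAVA, STAR 2.6.1d and hg38 are named, with no role given, per the submitters' processing notes. The counting tool and its handling of strand are not given in the sources used here. Coordinates are those of the deposited table.

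Counts were rounded and fitted in edgeR 4.0.16 (R 4.3.3) with TMM factors and filterByExpr, which left 18226 of 25296 genes. All 18 libraries entered 1 quasi-likelihood fit with 6 group coefficients, and 12 contrasts were tested with Benjamini-Hochberg adjustment over all tested genes, at a threshold of 0.05. Where a sentence names no tool, the adjusted p is edgeR's. The SE is the absolute log2 fold change over the square root of F. It and the p-values rest on a spread shared by all 6 groups, although the groups were not equally variable. CPM per kb used the length of the MANE transcript. Library depth was 15.4 to 21.9 M counts, and precision is least for the members with the fewest counts, such as PSMB9 and PSMC1. Replicate pairs differed by more than sampling noise. The labels call replicates biological. The fit was also run on simulated counts with the same spread in every group and changes in treated EV only. The real groups differed in spread, so that run does not cover the MUT comparisons. Alternatives were RLE factors, the authors' factors, other low-count filters, DESeq2 1.42.0, a fit of the compared groups only, a replicate block and leaving out each library.

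The members, classes and lists were chosen with earlier results of these data known. A fixed rule chose the catalytic pairs, PSME1 to PSME4 and PSMF1 for description. It added, per contrast, up to 3 members of largest rise and 3 of largest fall among those called. Not all of these are described for the comparisons between lines. PSMA4, for example, was lower in treated MUT than in treated EV (log2 fold change -0.32) and treated WT (-0.30). The sums of PSMC1 and PSME2 with their pseudogenes were added after seeing the data. The values of 1 gene on the antigen processing list are not reported here.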

Additional observations from a re-analysis of the deposited data

Results flagged for a closer look

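In 4 members the response to cytarabine differed between MUT and WT by the interaction test (edgeR, adjusted p under 0.05). The differences in log2 fold change were -0.49 for PSMA5, -0.51 for PSMB7, -0.50 for PSMB8 and -0.43 for PSMD14. In PSMA5, PSMB7 and PSMD14 the fall was larger in MUT, and PSMB8 rose in WT and did not pass the test in MUT. None of the 4 held in all fits that left out 1 library.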

How the results depend on the processing

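The counts of members called for the cytarabine effect in each line stayed within 1.5 times of the main count under each alternative, and 40 of 42 calls in EV, 37 of 40 in WT and 41 of 43 in MUT held in every fit that left out 1 library. The differences between lines depended on the setting. For the difference in effect between MUT and EV (0 called), RLE factors gave 1, a mean of at least 50 counts 4, DESeq2 16, and leaving out 1 library 0 to 13. For MUT against WT (4 called), these gave 8, 9, 22 and 0 to 19, and a fit of the compared groups only gave 0. Fits of the compared groups only gave 21 for untreated WT against EV (17 higher, 4 lower). Those fits called 9 members between untreated MUT and EV and 5 between untreated MUT and WT, and 5 and 20 after treatment. Without the low-count filter untreated WT against EV gave 3, and the authors' factors gave 7 for treated MUT against WT. Leaving out 1 library gave 1 to 9 for untreated WT against EV, 16 to 34 between MUT and EV and 10 to 32 between MUT and WT, and 3 to 15, 2 to 7 and 5 to 16 in treated cells. The cause was not tested, and the shares of all genes called are not given beside these counts. Of 1950 single-gene values under alternatives, 1888 kept their side of the threshold, 40 lost and 22 gained a call. In 0 did the direction reverse where either fit made a call. Values that passed in neither fit could change sign and still count among the 1888. PSME1 in EV, for example, had 0.04 in the main fit and -0.04 to 0.11 under alternatives. With a replicate block the counts were 42, 41 and 43 for the effects in EV, WT and MUT, and 0, 0 and 4 for the differences, and PSMA5 was no longer called (adjusted p = 0.0505). Same-numbered samples correlated between -0.04 and 0.33, and some but not all samples correlated best with their own number. With 3 samples per group, these values cannot settle whether the replicates were paired.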
